A study of Saccharomyces cerevisiae with 90 samples.

Results

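The 45 genes described here encode the cyclins, replication proteins and regulators that drive the budding yeast (Saccharomyces cerevisiae) cell cycle, 45 of the 5449 genes measured. They were chosen by name, each read by its brightest probe set. All 45 had exactly 1 probe set, and none was below the background limit on any of the 90 arrays. Of them, 32 act at Start, origin licensing, DNA synthesis or cohesion (G1/S). Another 12 encode mitotic cyclins or other regulators of G2 and mitosis (G2/M), and CKS1 belongs to both.

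A yeast cell commits to division at Start, when the G1 cyclin CLN3 frees the factor SBF (SWI4 with SWI6) from the repressor WHI5 and MBF (MBP1 with SWI6) becomes active. These factors switch on the G1 cyclins CLN1 and CLN2, the S-phase cyclins CLB5 and CLB6, and the genes of DNA synthesis. The mitotic cyclins CLB1 to CLB4 follow, with CLB1 and CLB2 under the forkhead factors and NDD1. SWE1 holds the mitotic cyclin kinase in check and HSL1 acts against SWE1. In filamentous growth of yeast, a MAP-kinase pathway with MSB2, STE11, KSS1 and TEC1 turns on CLN1 and the adhesin FLO11, and cells elongate.

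The study set cells in liquid against cells on solid substrates, to ask how yeast responds to touch. Array groups were labelled by strain, by nutrient composition (SD, SLAD or SG, as the labels spell them), by substrate and by hours of growth. Wild-type was grown for 6 h in SD, SLAD and SG, each in liquid and on agar, in SD also on gelatin, and in SD liquid and SD agar was also taken at 0 h. The other strains had 6 h groups on agar and in liquid. In SD there were the tec1, msb2 and flo11 mutants and Kss1K42R, whose label names an amino acid change in KSS1, and in SD and SG there was PGAL1-FLO11 (FLO11 behind the GAL1 promoter, per its label). The plasmid strains, all in SD, carried pRS313 or pRS316 alone, STE11-4 set against pRS313, and MSB2* set against pRS316. The labels used here give neither mating type nor ploidy, and the KSS1 signal checks nothing for an amino acid substitution. Each of the 29 groups had 3 arrays, except wild-type SD agar at 0 h with 6, and whether replicates are separate cultures is not stated, so the p-values rest on a spread that may be technical.

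Signals are log2 values made by the authors with RMA. A member rose or fell, as written here, where limma's moderated test gave an adjusted p under 0.05 over all 5449 genes. Levels are given as mean ± SD of 3 arrays, changes as log2 change ± SE, and per-array values in the order of replicates A, B and C. The SE and p-values use 1 spread per gene, pooled over all groups. They understate the noise of groups whose own arrays spread widely, such as SLAD liquid for SWI5 (SD 0.71) and TOS4 (SD 0.53). The median SD of a member within a group was 0.167. An exact permutation test of 3 arrays against 3 cannot go below p = 0.1.

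The labels were checked first. TEC1 and MSB2 were below background in the tec1 and msb2 strains, FLO11 was at 6.77 ± 0.26 on agar in flo11, and HIS3 and URA3 were high only where pRS313 and pRS316 or their alleles were labelled. For the SD arrays labelled PGAL1-FLO11, the FLO11 signal was 14.50 ± 0.11 on agar and 10.64 ± 0.38 in liquid, beside 14.81 ± 0.06 and 10.41 ± 0.16 in wild-type, which does not follow GAL1 at 7.995 ± 0.12 and 8.33 ± 0.32. Genes of a cells, alpha cells and meiosis had group means of 7.11 to 7.84, 7.60 to 8.89 and 6.02 to 6.88 over all groups. Arrays far from their replicates were wild-type gelatin A (root mean square distance 0.893 log2, against a median of 0.173 over all arrays), wild-type SG liquid C (0.469) and STE11-4 SD liquid C (0.437), with gelatin B (0.501) and C (0.445) and msb2 SD agar C (0.419) and A (0.413) at like distances. Counts without them are given beside several of the results. The titles of wild-type liquid at 0 h, pRS313 liquid and STE11-4 liquid carry a letter b of unstated meaning. In pRS313 and STE11-4 it cannot be told apart from growth in liquid. In wild-type liquid it cannot be told apart from time, as the titles at 6 h lack it.

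Over the 29 groups, the gap between a member's highest and lowest group mean had a median of 1.60 log2, beside 1.28 over all genes. It was at least 2-fold for 36 of 45 members. The S-phase cyclin gene CLB6 had the widest gap, from 6.68 ± 0.06 in wild-type SLAD liquid to 10.45 ± 0.17 in STE11-4 on SD agar, 13.6-fold. PCL1, a G1 cyclin of the kinase PHO85, followed at 12.9-fold, then HSL1 at 12.2-fold, the SBF target TOS4 at 11.7-fold, SWI5, a transcription factor of late mitosis, at 11.5-fold, and CLN1 at 10.4-fold. At the other end stood RFA1, the large subunit of the single-strand binding protein RPA, at 1.52-fold, CLB4 at 1.63-fold, CLB3 at 1.65-fold and MCM4 at 1.65-fold. The low end was shared: 24 of 45 members (53.3%) had their lowest group mean in wild-type SLAD liquid, as did 21.1% of all genes. In wild-type SG liquid it was 11 members (24.4%), close to the 21.3% of all genes.

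**Figure D1:**
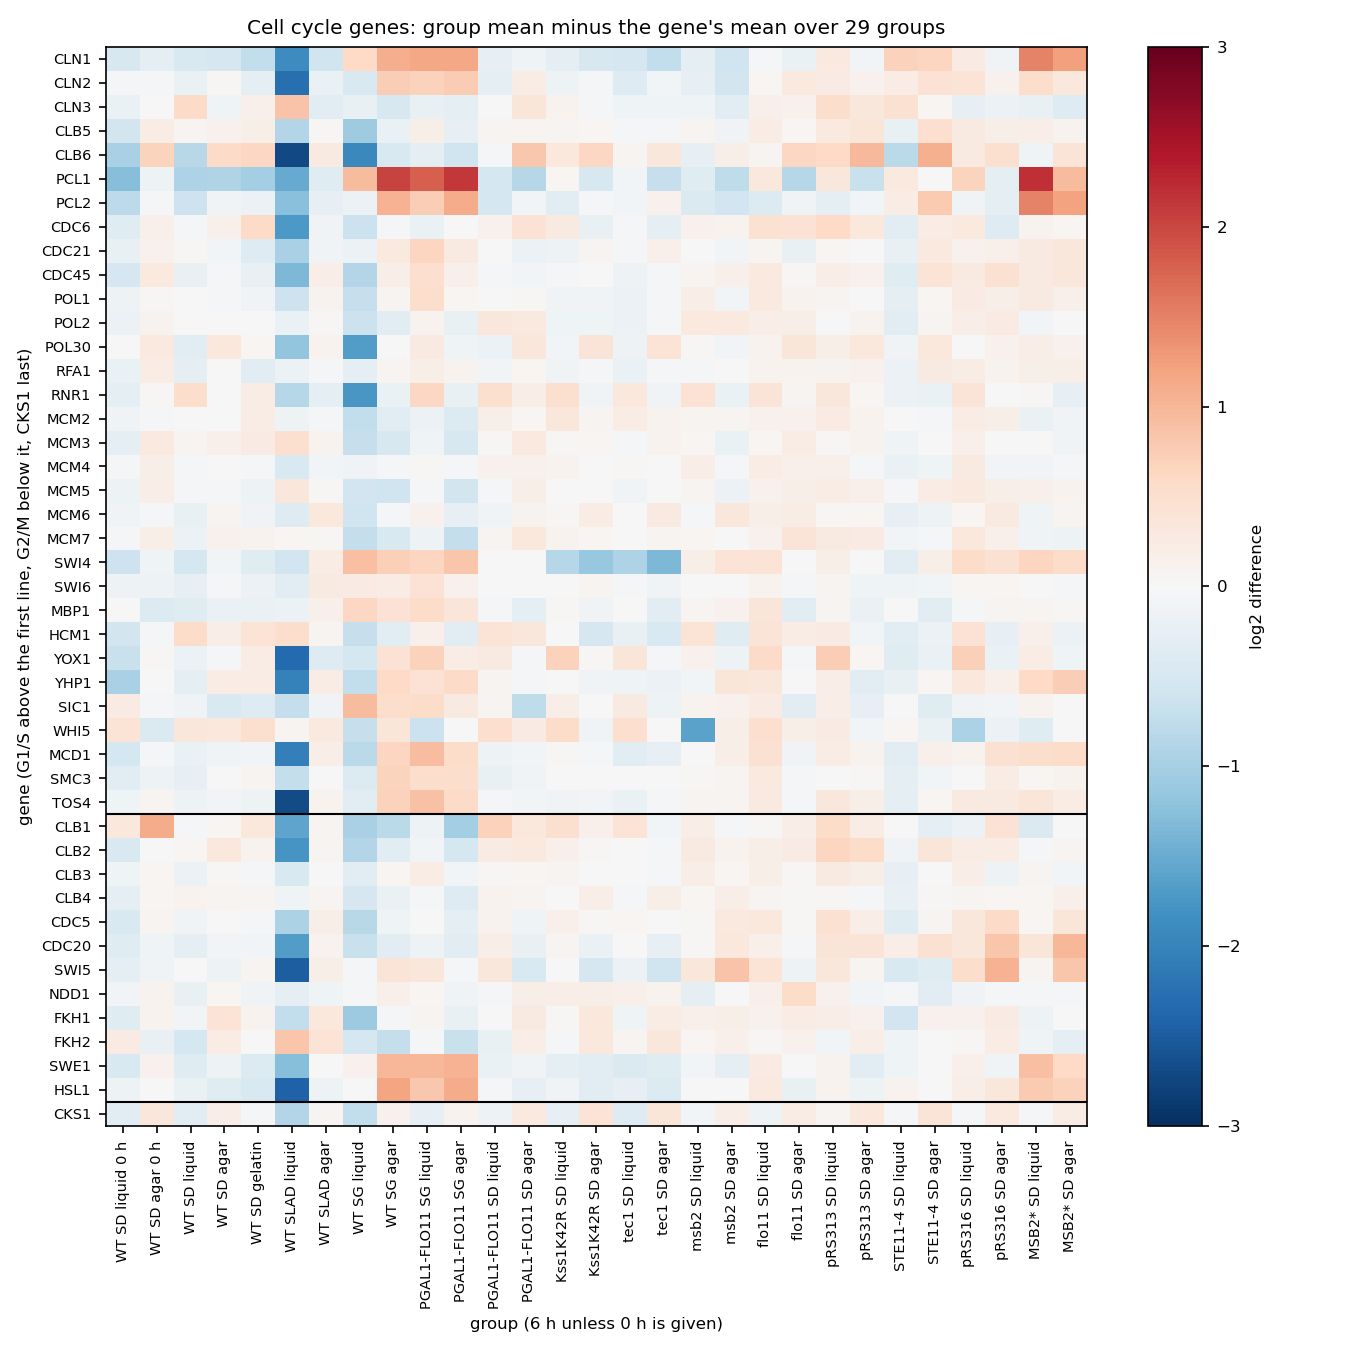
Each cell shows the mean log2 signal of 1 gene in 1 group minus that gene's mean over the 29 groups (colour scale in log2). Rows are the 45 genes, G1/S above the first line, G2/M below it and CKS1 last, and columns are the groups. The darkest blue column is wild-type SLAD liquid, where 24 of the 45 genes had their lowest mean.

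On SD agar, wild-type cells changed few cell cycle transcripts from SD liquid, and CLB6 was the only member with a called change of at least 2-fold, against 4.53% of all genes. CLB6, whose product fires early origins with CDC28, read 9.04, 8.21 and 8.42 in liquid and 9.99, 10.03 and 9.84 on agar. The groups did not overlap, and the rise was 1.40 ± 0.20 (adjusted p = 1.09e-07). In all, 11 members rose, against 30.8% of all genes, and 2 fell, against 21.1%. The median change was 0.12 for the members and 0.09 for all genes.

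The other G1/S genes that rose on SD agar were POL30, which encodes the sliding clamp PCNA (0.63 ± 0.11), PCL2, a second PHO85 cyclin gene (0.52), YHP1, a homeodomain repressor of early cell cycle genes (0.50), the helicase subunits MCM6 (0.31) and MCM7 (0.29), and RFA1 (0.27). RNR1, the large subunit of ribonucleotide reductase, fell by 0.53 (adjusted p = 0.00206) and CLN3 by 0.70 (adjusted p = 0.00748). Among the 12 G2/M genes, the forkhead factors FKH2 (0.75 ± 0.12) and FKH1 (0.49) and the mitotic cyclin CLB3 (0.20) rose and none fell. CKS1, the small subunit of the CDC28 kinase, rose by 0.53 ± 0.08.

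The G1 cyclin genes CLN1 and CLN2, and CLB2, SWE1 and SIC1, did not pass the test on SD agar. CLN1 read 9.86, 9.93 and 9.70 in liquid and 9.73, 9.86 and 9.73 on agar, which overlap (adjusted p = 0.746). CLN2 read 10.06, 10.15 and 10.03 against 10.34, 10.37 and 10.25, apart but not called (adjusted p = 0.133). The mitotic cyclin gene CLB2 read 10.69, 10.63 and 10.57 against 10.97, 10.93 and 10.80, again apart and not called (adjusted p = 0.12). For SWE1, the Wee1 kinase that delays mitosis, the adjusted p was 0.219, with 9.45, 9.45 and 9.24 in liquid and 9.54, 9.65 and 9.54 on agar. SIC1, the inhibitor of the S-phase cyclin kinase, read 9.33, 9.39 and 9.39 in liquid and 8.92, 8.996 and 9.09 on agar, with an adjusted p of 0.0552. Fitted on its own 6 arrays, this comparison called 20 members instead of 13. MCM6 and CLB3 lost their calls under quantile normalization and median centring.

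Related genes outside the 45 moved unevenly on SD agar, where 30.8% of all genes rose and 21.1% fell. Of 39 other replication genes, 15 rose, led by the origin recognition subunit ORC6 (0.79), and 1 fell. Of 24 other Start genes, 2 rose and 6 fell, among them the M/G1 cyclin gene PCL9 at -0.94. Of 27 other G2/M genes, 4 rose and 4 fell. The median changes of these lists were 0.20, -0.02 and 0.08, beside 0.09 for all genes.

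On gelatin, another solid substrate, CLB6 again stood out, at 9.83, 10.22 and 9.98, above the liquid arrays given earlier, a rise of 1.45 ± 0.20 (adjusted p = 6.88e-08). The agar and gelatin comparisons share the liquid arrays. On gelatin 10 members rose, against 15.6% of all genes, and 1 fell, against 21.6%. The others that rose included the licensing factor CDC6 (0.62), FKH2 (0.53), YHP1 (0.51) and CKS1 (0.27), and the one that fell was CDC21, thymidylate synthase (-0.43). Gelatin array A stood apart, as CLN3 shows at 11.61, 12.81 and 12.77. Without it 19 members were called instead of 11 (11 without B and 16 without C) and the cohesin subunit SMC3 went from 0.32 to -0.00024, and on the 6 arrays of this comparison alone none was called.

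In SLAD, the liquid and agar cultures differed far more. Most G1/S and G2/M genes were lower in liquid, CLB6 the most. 34 of 45 members rose on SLAD agar over SLAD liquid, against 39.3% of all genes, and 5 fell, against 33.6%. A rise of at least 2-fold was seen in 20 members, against 11.2% of genes. The median change was 0.87 for the members and 0.07 for all genes. By phase, 23 of 32 G1/S genes rose and 4 fell, and 10 of 12 G2/M genes rose and 1 fell. Arrays of whole cultures cannot tell fewer cells in a cycle phase from less of a transcript per cell.

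Among the G1/S genes in SLAD, CLB6 read 6.75, 6.64 and 6.66 in liquid and 9.45, 9.70 and 9.81 on agar. The groups lie far apart, and the rise was 2.97 ± 0.20 (adjusted p = 1.12e-20). TOS4, a chromatin-binding protein made in late G1, read 7.66, 7.23 and 6.60 in liquid and 9.81, 9.98 and 10.04 on agar, a rise of 2.78 ± 0.15 (adjusted p = 3.45e-26). Its liquid arrays spread widely and all lay more than 2 log2 units below the agar arrays. MCD1, the cohesin subunit that separase cleaves, read 7.42, 7.23 and 6.94 against 9.39, 9.48 and 9.46 (2.25 ± 0.20). YHP1 read 8.01, 7.91 and 7.64 against 10.16, 9.98 and 10.16 (2.25 ± 0.14), and its partner repressor YOX1 rose by 1.95 ± 0.20. None of these overlapped between liquid and agar.

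The G1 cyclins went in opposite directions in SLAD. CLN2 read 8.41, 7.95 and 7.71 in liquid and 9.97, 10.14 and 10.14 on agar, a rise of 2.06 ± 0.14 (adjusted p = 2e-21). CLN1 read 8.42, 8.34 and 8.40 against 9.53, 9.82 and 9.73 (1.30 ± 0.14). CLN3, which acts upstream of both, read 13.21, 13.01 and 13.09 in liquid and 11.92, 11.94 and 11.82 on agar and fell by 1.21 (adjusted p = 2.33e-06). In each of these genes the liquid and agar arrays did not overlap. The PHO85 cyclin genes PCL1 and PCL2 rose by 1.14 and 1.02, and SIC1 by 0.61, from 8.96, 8.74 and 8.56 to 9.32, 9.40 and 9.40. SWI4 rose by 0.81 and SWI6 by 0.60, while WHI5 (0.21, adjusted p = 0.655) and MBP1 (0.32, adjusted p = 0.107) did not pass.

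Of the replication genes outside the MCM helicase, all but RFA1 (0.13, adjusted p = 0.182) rose. CDC6 rose by 1.61, CDC45, which activates the helicase, by 1.55, POL30 by 1.28, CDC21 by 0.87, POL1, the catalytic subunit of DNA polymerase alpha, by 0.72, RNR1 by 0.57, and POL2, that of polymerase epsilon, by 0.23. The MCM2 to MCM7 genes, which encode a single hexamer, did not move together. MCM6 (0.71) and MCM4 (0.38) rose, MCM3 (-0.38) and MCM5 (-0.30) fell, and MCM2 (0.12) and MCM7 (-0.02) did not pass. Their median was 0.05. HCM1, the forkhead factor of S phase, fell by 0.44. The calls of POL2 and HCM1 were lost without SLAD liquid array C, and that of POL2 without agar array B.

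In G2/M, SWI5 read 7.59, 6.60 and 6.21 in SLAD liquid and 9.24, 9.51 and 9.63 on agar, a rise of 2.66 ± 0.20 (adjusted p = 1.2e-18). HSL1 read 9.001, 8.36 and 8.09 against 10.70, 10.75 and 10.83 (2.28 ± 0.15). CLB2 read 9.39, 8.63 and 8.41 against 10.63, 10.70 and 10.66 (1.85 ± 0.15, adjusted p = 1.06e-17). Liquid and agar arrays were apart in all 3, with liquid array A the highest of its group each time. SWE1 read 8.97, 8.35 and 8.02 against 9.66, 9.89 and 9.68 and rose by 1.30 ± 0.14. CDC20, which activates the anaphase-promoting complex, rose by 1.80, CLB1 by 1.67, the Polo kinase CDC5 by 1.12 and FKH1 by 1.05. Its relative FKH2 went the other way. FKH2 read 10.44, 10.36 and 10.32 in liquid and 10.01, 9.94 and 9.90 on agar and fell by 0.43, again without overlap.

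**Figure D2:**
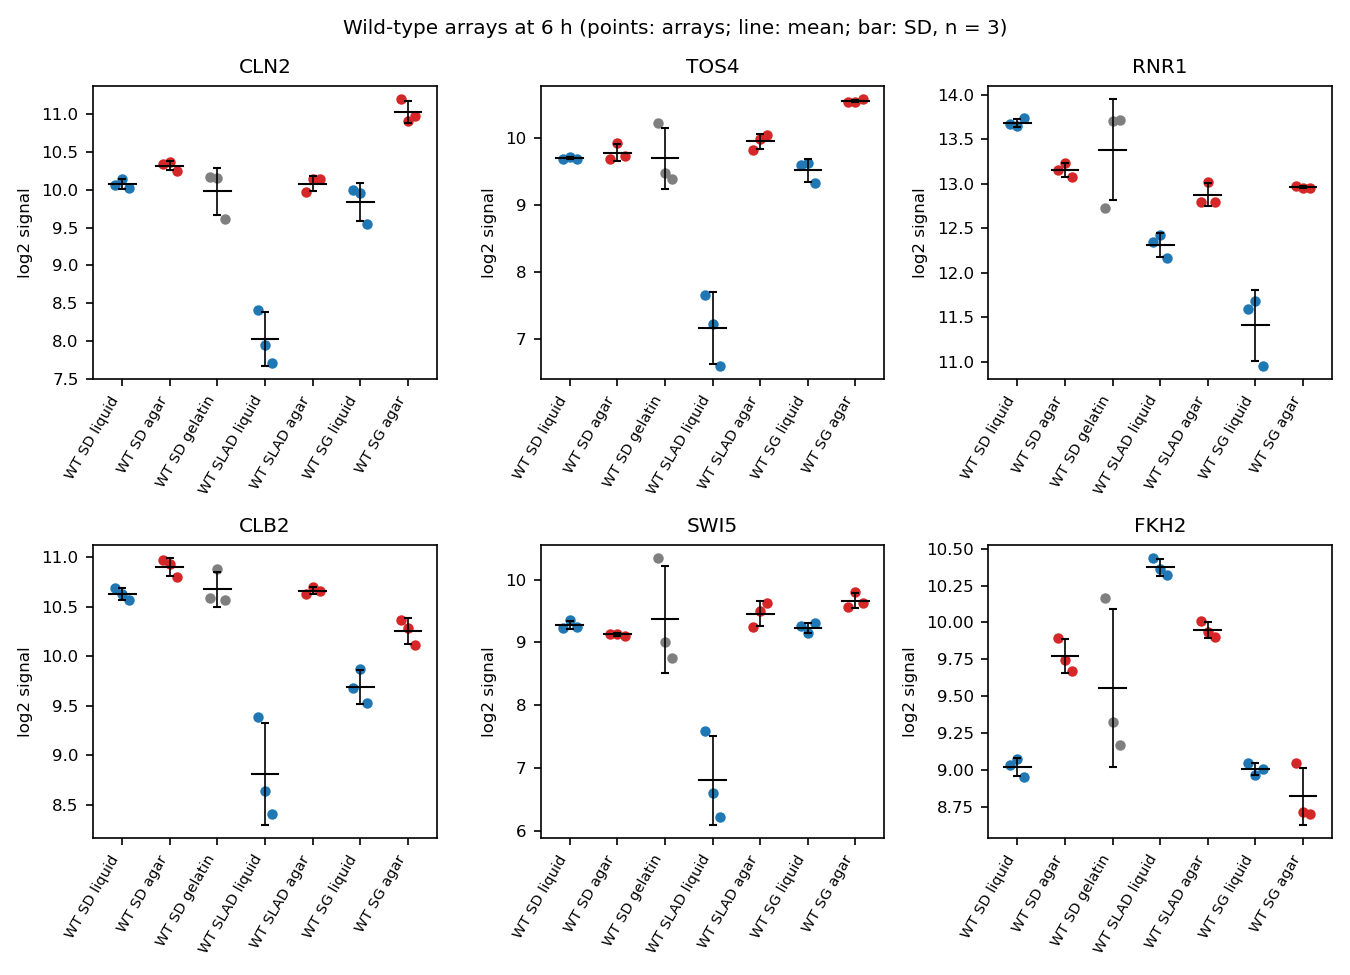
Each panel plots the log2 signal of 1 gene in the 7 groups of wild-type cells at 6 h, with a point for each array (blue liquid, red agar, grey gelatin), a line for the mean and a bar for the SD, n = 3. CLN2, TOS4, CLB2 and SWI5 lie lowest in SLAD liquid and FKH2 lies highest there, while RNR1 lies lowest in SG liquid.

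Set against SD, members were called in liquid and not on agar. Between SLAD agar and SD agar no member was called, against 1.78% of all genes, by limma, and 3 had an unadjusted p under 0.05. Between SLAD liquid and SD liquid 31 members were lower in SLAD, against 30.2% of all genes, and 4 were higher, against 33.3%. The members' median was -0.62, and that of all genes was 0.03, or -0.07 after median centring. TOS4 (-2.53), SWI5 (-2.47), HSL1 (-2.23), YOX1 (-2.17), CLN2 (-2.05), CLB6 (-1.87), MCD1 (-1.84) and CLB2 (-1.82) were lower. FKH2 (1.35), MCM3 (0.41), MCM5 (0.41) and MCM7 (0.23) were higher in SLAD liquid. The comparisons with SLAD liquid share its 3 arrays. The change from liquid to agar itself differed between SLAD and SD for 34 members, against 51.3% of all genes: in 30 it was more positive in SLAD, most in SWI5 (2.81 ± 0.29), TOS4 (2.69 ± 0.21) and HSL1 (2.44 ± 0.21), and in FKH2, MCM3, MCM5 and MCM7 more negative.

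**Figure D3:**
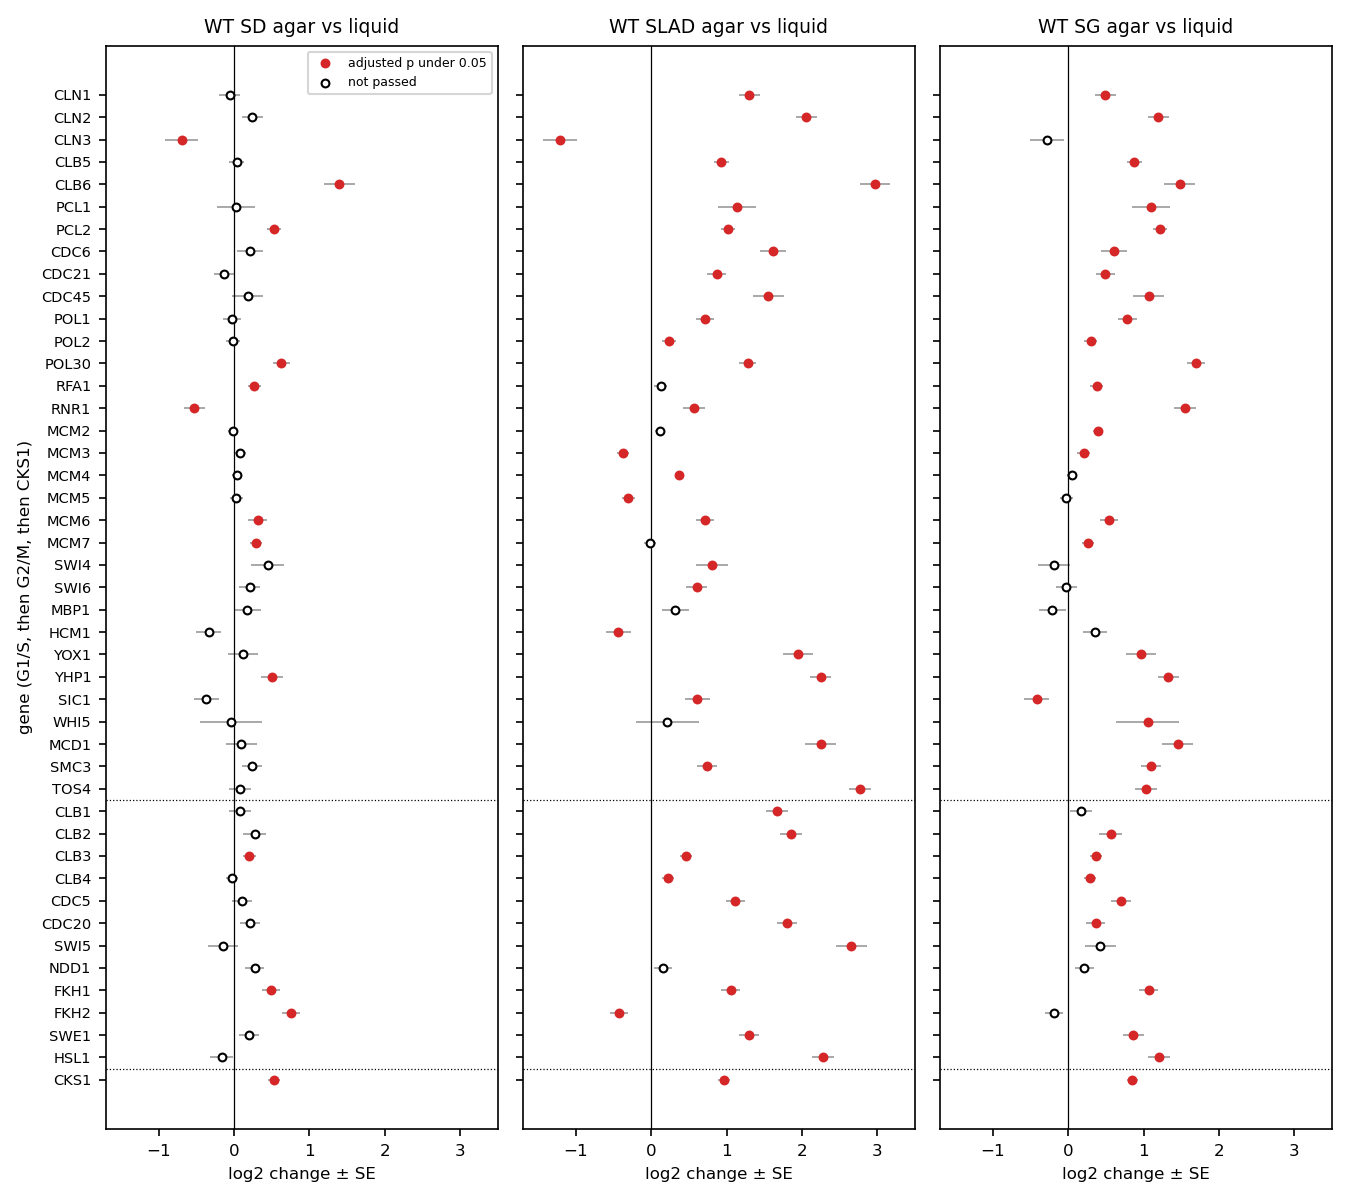
Points are the log2 change of each gene on agar over liquid in wild-type cells, in SD, SLAD and SG from left to right. Bars show the SE from the spread pooled over all groups (n = 3 arrays per group). Filled points passed an adjusted p of 0.05. In SLAD 34 genes rose and 5 fell, in SG 33 rose and 1 fell, and in SD 11 rose and 2 fell, CLB6 most in SD at 1.40.

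Genes of growth and stress moved with the same arrays. The mean level of 20 general stress genes was 12.996 ± 0.02 in SLAD liquid, 9.80 ± 0.17 on SLAD agar, 10.44 ± 0.17 in SD liquid and 9.84 ± 0.30 on SD agar. For 10 genes high in stationary phase, the means in the same order were 10.64 ± 0.04, 8.94 ± 0.13, 8.58 ± 0.04 and 8.92 ± 0.10. Both lists were therefore highest in SLAD liquid among these groups. The mean of 30 ribosome biogenesis genes was 12.24 ± 0.10 in SLAD liquid, 12.81 ± 0.07 on SLAD agar, 12.10 ± 0.05 in SD liquid and 12.69 ± 0.07 on SD agar. Of them 25 rose on agar in SLAD and 28 in SD, against 39.3% and 30.8% of all genes, with medians of 0.60 and 0.59. The part of growth state in the cell cycle differences was not tested.

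Cell cycle genes outside the 45 were also mostly higher on SLAD agar, where 39.3% of all genes rose and 33.6% fell. Of 39 other replication genes, 24 rose, such as ORC1 (1.49) of the origin recognition complex and the flap nuclease RAD27 (1.47), and 7 fell, with RNR3, the damage-induced ribonucleotide reductase subunit, at -3.76. Of 24 other Start genes, 13 rose and 7 fell, with the MBF corepressor NRM1 at 2.14. Of 27 other G2/M genes, 20 rose and 4 fell, with the cytokinesis gene HOF1 at 2.56 and the bud site gene BUD4 at 2.32. The medians of these lists were 0.33, 0.25 and 0.61, beside 0.07 for all genes. Of 7 core histone genes 5 rose.

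In SG, agar again carried higher levels than liquid, with POL30 and RNR1 furthest apart. GAL1 stood at 15.27 ± 0.04 on SG agar, against 7.73 ± 0.14 on SD agar. On SG agar 33 members rose over SG liquid, against 34.9% of all genes, and SIC1 alone fell, against 29.7%. A rise of at least 2-fold was seen in 14, against 7.95% of genes. The median was 0.54 for the members and 0.04 for all genes. Of the G1/S genes 24 rose, and of the G2/M genes 8.

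POL30 read 11.39, 11.40 and 10.81 in SG liquid and 13.10, 12.83 and 12.76 on SG agar, a rise of 1.69 ± 0.11 (adjusted p = 9.29e-21). RNR1 read 11.60, 11.68 and 10.95 against 12.98, 12.96 and 12.95 (1.55 ± 0.15, adjusted p = 1.04e-14). For both, liquid array C was the lowest and all liquid arrays lay below all agar arrays. CLB6 read 7.48, 7.40 and 7.49 against 9.27, 8.78 and 8.77 (1.48 ± 0.20). MCD1 read 8.42, 8.21 and 8.66 against 10.08, 9.68 and 9.89 (1.45 ± 0.20), and YHP1 9.02, 9.10 and 9.29 against 10.41, 10.38 and 10.60 (1.33 ± 0.14). These 3 genes showed no overlap either. Among replication genes, CDC45 (1.07), POL1 (0.78), MCM6 (0.54), CDC21 (0.49), MCM2 (0.39), RFA1 (0.38) and POL2 (0.30) also rose.

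The G1 cyclin genes rose on SG agar by unequal steps. PCL2 read 8.67, 8.65 and 8.37 in SG liquid and 9.72, 9.79 and 9.83 on SG agar (1.21 ± 0.09). CLN2 read 9.99, 9.96 and 9.55 against 11.20, 10.91 and 10.98 (1.20 ± 0.14), and CLN1 10.98, 10.98 and 10.68 against 11.36, 11.25 and 11.50 (0.49 ± 0.14). All 3 cyclin genes were apart between liquid and agar, CLN1 by the smallest step. CLN3, at 12.38, 12.39 and 11.33 against 11.80, 11.76 and 11.70, overlapped and was not called (adjusted p = 0.272). SIC1 read 10.50, 10.21 and 10.53 against 9.91, 10.06 and 10.01 and fell by 0.42 (adjusted p = 0.0226), a call that was lost without liquid array A or C or agar array A. WHI5 read 9.56, 9.51 and 5.90 against 9.29, 9.44 and 9.39, and its rise of 1.05 ± 0.42 rests on liquid array C: without that array its change was -0.16. Without the same array CDC20, MCM3 and MCM7 also lost their calls, and 30 members were called on SG agar over liquid instead of 34.

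In G2/M on SG agar, HSL1 rose by 1.20 ± 0.15, FKH1 by 1.07 ± 0.12, CDC5 by 0.70 and CLB4 by 0.29. SWE1 read 10.04, 9.85 and 9.72 in liquid and 10.66, 10.67 and 10.88 on agar (0.86 ± 0.14). CLB2 read 9.68, 9.87 and 9.53 against 10.36, 10.29 and 10.11 (0.56 ± 0.15). Neither of them overlapped. CLB1 (0.17), SWI5 (0.42), NDD1 (0.21) and FKH2 (-0.19) did not pass. The change from liquid to agar differed between SG and SD for 25 members (20 without SG liquid array C), against 47.7% of all genes. It was more positive in SG for all of them except FKH2 (-0.94 ± 0.17), and most for RNR1 (2.08 ± 0.21), which rose in SG and fell in SD.

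Growing in SG rather than SD shifted the balance of cyclins on agar. PCL1, CLN1, HSL1, SWE1 and PCL2 were higher in SG and CLB6 was lower. PCL1 read 8.26, 8.50 and 8.37 on SD agar and 11.47, 11.03 and 11.48 on SG agar, the largest difference of any member here at 2.95 ± 0.25 (adjusted p = 3.4e-16). CLN1 differed by 1.60 ± 0.14 on the arrays given earlier. HSL1 read 10.45, 10.60 and 10.59 against 11.97, 12.01 and 12.31 (1.55 ± 0.15), with SWE1 at 1.16 ± 0.14, PCL2 at 1.14 ± 0.09 and SIC1 at 0.99. The S-phase and mitotic cyclins CLB6 (-1.02 ± 0.20), CLB1 (-0.86) and CLB2 (-0.65), and FKH2 (-0.95), were lower in SG. In all 16 members were higher, against 34.9% of all genes, and 14 lower, against 27.6%. The all-gene median was 0.05 here, or -0.06 after quantile normalization, small beside these values.

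In liquid, 25 members were lower in SG than in SD, against 34.9% of all genes, and 8 were higher, against 43.2%. Without SG liquid array C 31 members were called instead of 33. RNR1 (-2.27 ± 0.15), POL30 (-1.36 ± 0.11), HCM1 (-1.23 ± 0.17) and CLB5 (-1.15 ± 0.10) were the lowest relative to SD. RNR1 read 13.67, 13.64 and 13.73 in SD liquid, and POL30 12.66, 12.48 and 12.55, both far above their SG liquid arrays. The Start genes PCL1 (1.88 ± 0.25), SWI4 (1.43 ± 0.22), CLN1 (1.05), SIC1 (1.04) and MBP1 (0.996) were higher in SG. SWI4 read 9.27, 9.11 and 9.36 in SG liquid and 8.02, 7.76 and 7.65 in SD liquid, without overlap. PCL2 (0.45) turned to -0.083 under quantile normalization, and WHI5 (-1.03) to 0.18 without SG liquid array C. The all-gene median moved from 0.09 to -0.09 under quantile normalization, and the members' median was -0.41. General stress genes averaged 14.54 ± 0.03 in SG liquid, above 11.95 ± 0.30 on SG agar, and ribosome biogenesis genes 10.75 ± 0.17, below 12.14 ± 0.26. Their part in these differences was not tested.

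The strain labelled PGAL1-FLO11 did not show the low SG liquid levels. Its FLO11 signal was 15.19 ± 0.03 in SG liquid and 15.21 ± 0.03 on SG agar, beside 14.73 ± 0.32 and 14.76 ± 0.12 in wild-type. In SG liquid 37 of 45 members were higher than in wild-type, against 33.2% of all genes, and SIC1 (-0.41) alone was lower, against 32.0%. RNR1 read 13.77, 13.62 and 13.91 in this strain, above the wild-type SG liquid arrays by 2.36 ± 0.15 (adjusted p = 1.49e-22). POL30 read 13.19, 13.04 and 13.21 (1.94 ± 0.11), MCD1 10.41, 10.13 and 10.000 (1.75 ± 0.20) and CLB6 9.40, 8.52 and 9.40 (1.65 ± 0.20). In each, all arrays of the labelled strain lay above all wild-type SG liquid arrays. CDC45 (1.39), CLB5 (1.24) and POL1 (1.21) followed. On SG agar no member was called between the strains, against 1.84% of all genes, and 4 had an unadjusted limma p under 0.05.

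Within that strain, agar went with lower levels than liquid in SG. 17 members fell, against 10.0% of all genes, led by CLB1 (-0.86 ± 0.15), RNR1 (-0.84 ± 0.15), FKH2 (-0.63) and MCM7 (-0.58). RNR1 on agar read 12.85, 12.93 and 13.01, below its 3 liquid arrays. Only PCL2 (0.37) and CKS1 (0.36) rose, against 11.7%. The change from liquid to agar differed from that of wild-type for 35 members, against 54.0%, and was more negative in all 35. RNR1 was at -2.39 ± 0.21 and POL30 at -2.09 ± 0.16. This difference and the earlier comparisons with wild-type SG liquid share the same wild-type SG liquid arrays, so they are not independent. General stress genes averaged 12.57 ± 0.41 in its SG liquid and 12.07 ± 0.15 on its SG agar, a smaller gap than in wild-type; their part was not tested.

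CKS1 was the one member that rose on agar in all 13 liquid-agar pairs of strains and nutrient compositions. Of all 5449 genes 16 did so, 0.294%. Its changes ran from 0.22 in pRS313 to 0.96 in wild-type SLAD, and the largest of the 13 adjusted p values was 0.0312. In wild-type SD it read 11.35, 11.31 and 11.35 in liquid and 11.81, 11.90 and 11.88 on agar. In SLAD it read 10.76, 10.81 and 10.75 against 11.66, 11.77 and 11.78, and in SG 11.02, 11.01 and 10.74 against 11.77, 11.56 and 12.000. The groups were apart each time. Its smallest change, in pRS313, came from 11.80, 11.71 and 11.74 in liquid and 11.90, 11.99 and 12.01 on agar, and that call was lost when agar array B or C or liquid array B or C was left out. In MSB2* the call was lost without liquid array B.

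The other members followed agar less evenly. PCL2 rose in 8 of the 13 pairs and fell in 1, POL30 rose in 7 and fell in 1, CLB6 rose in 6 and FKH1 in 5 with no falls. PCL1 rose in 2 pairs, wild-type SLAD and SG, and fell in 5, among them tec1 and all plasmid strains except STE11-4. RNR1 rose in 2 and fell in 6, and HCM1 rose in none and fell in 5.

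**Figure D4:**
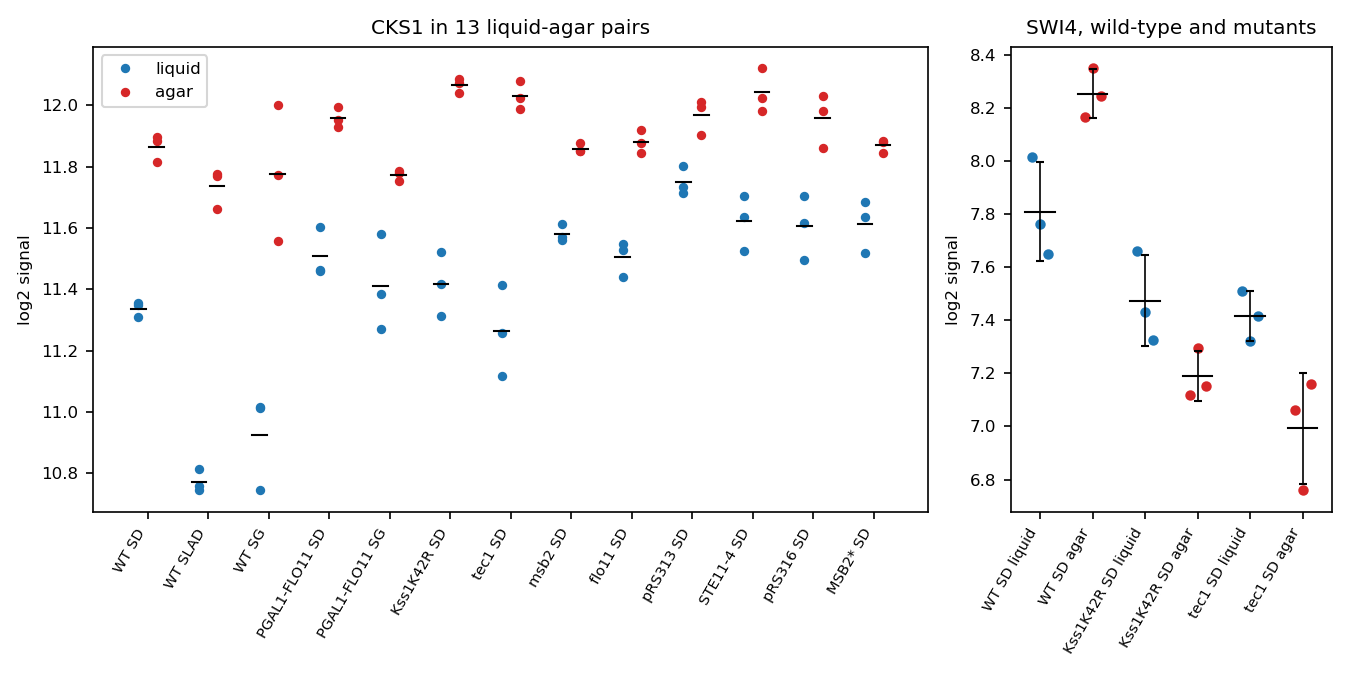
The left panel plots the log2 signal of CKS1 on each array in the 13 liquid-agar pairs (blue liquid, red agar, line for the mean), and in all pairs the agar mean is the higher, by 0.22 to 0.96. The right panel plots SWI4 in wild-type, Kss1K42R and tec1 in SD, with a line for the mean and a bar for the SD (n = 3), and the agar arrays of both mutants lie below those of wild-type.

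PCL2 and CLN1 were higher with the STE11-4 and MSB2* alleles than with their plasmid controls. STE11-4, a dominant active form of the MAP kinase kinase kinase STE11, was compared with the empty plasmid pRS313, and MSB2*, an altered allele of the mucin sensor MSB2, with pRS316. On agar, PCL2 read 8.66, 8.59 and 8.70 with pRS313 and 9.47, 9.65 and 9.45 with STE11-4, a rise of 0.87 ± 0.09 (adjusted p = 1.03e-10). CLN1 read 10.27, 10.11 and 10.22 against 10.90, 10.99 and 10.88 (0.72 ± 0.14, adjusted p = 0.000256). Neither gene overlapped between the strains. Those were the 2 members that rose on agar, against 2.70% of all genes, and 2 fell, against 0.973%, MCM7 (-0.29) and CLB1 (-0.52), both lost without agar array A or B of either strain.

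MSB2* was set against its own plasmid control. On agar PCL2 read 8.38, 8.39 and 8.60 with pRS316 and 9.99, 10.04 and 9.78 with MSB2* (1.48 ± 0.09, adjusted p = 1.44e-20). CLN1 read 9.95, 10.24 and 10.35 against 11.37, 11.64 and 11.53 (1.33 ± 0.14, adjusted p = 1.78e-11). PCL1 read 8.61, 9.15 and 9.24 against 10.34, 10.28 and 10.13 (1.25 ± 0.25, adjusted p = 0.000171). All 3 were apart. SWE1, from 9.61, 9.68 and 9.63 to 10.29, 10.35 and 10.32, rose by 0.68 ± 0.14, and YHP1 by 0.58. In all 5 members rose, against 6.68% of all genes. The 4 that fell, against 2.90%, were FKH2 (-0.48), CLB1 (-0.44), MCM7 (-0.30) and MCM2 (-0.29).

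Higher in liquid with MSB2* than with pRS316 were PCL2 (1.58 ± 0.09), PCL1 (1.53 ± 0.25), CLN1 (1.23 ± 0.14), SWE1 (0.74) and HSL1 (0.58). PCL1 read 10.04, 9.92 and 9.88 with pRS316 and 11.67, 11.45 and 11.31 with MSB2*, and CLN1 10.55, 10.53 and 10.53 and 11.82, 11.69 and 11.80. These 5 members compare with 10.1% of all genes. POL2 (-0.30), MCM4 (-0.36), MCM2 (-0.42) and MCM7 (-0.44) fell, 4 in all, against 10.2%. Quantile normalization brought the count from 9 to 14. General stress genes averaged 12.56 ± 0.09 in MSB2* liquid and 11.59 ± 0.09 in pRS316 liquid. Stationary phase genes averaged 10.72 ± 0.13 and 9.63 ± 0.03, and the part of both lists was not tested. The change from liquid to agar differed between MSB2* and pRS316 for 1 member, MCM4 (0.38), against 1.73% of all genes.

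With STE11-4 in liquid, most called members were lower. 23 were lower than with pRS313, against 7.96% of all genes, and PCL2 (0.52) and CLN1 (0.39) were higher, against 8.28%, though the call of CLN1 (adjusted p = 0.0479) was lost without pRS313 liquid array A, B or C or STE11-4 liquid array A or B. CLB6 read 10.39, 9.89 and 9.65 with pRS313 and 8.74, 8.68 and 8.33 with STE11-4 (-1.39 ± 0.20, adjusted p = 2.98e-07). YOX1 read 11.52, 11.32 and 11.26 against 10.53, 10.21 and 10.04 (-1.11 ± 0.20). Both were apart, and CDC6 (-0.91), SWI5 (-0.82), CDC5 (-0.81) and CLB2 (-0.74) were lower too. Of the 20 general stress genes 17 were also higher, 14 of them at least 2-fold, with a mean of 11.84 ± 0.51 against 10.27 ± 0.10, and the stationary phase genes averaged 10.18 ± 0.16 against 9.23 ± 0.06. Their part was not tested. Without STE11-4 liquid array C, which stood apart, 12 members were called instead of 25.

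On agar STE11-4 cells had CLB6 at 10.29, 10.63 and 10.44 beside 10.33, 10.33 and 10.40 with pRS313, a rise of 1.87 ± 0.20 over their own liquid arrays (adjusted p = 3.58e-11). 17 members rose on agar in STE11-4 and none fell, against 15.5% and 16.4% of all genes, but 9 were called without liquid array C. CDC45 (0.77), FKH1 (0.71) and CLB5 (0.71) followed CLB6. In pRS313 CKS1 alone rose and 5 fell, against 5.85% and 14.1%, with PCL1 falling from 9.68, 9.62 and 9.60 to 8.64, 8.65 and 8.54. The agar change differed between these strains for 8 members, against 4.55%, CLB6 the most (1.49 ± 0.29). Without STE11-4 liquid array C that count was 2, without array A of the same group 17 and without pRS313 liquid array A 5.

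**Figure D5:**
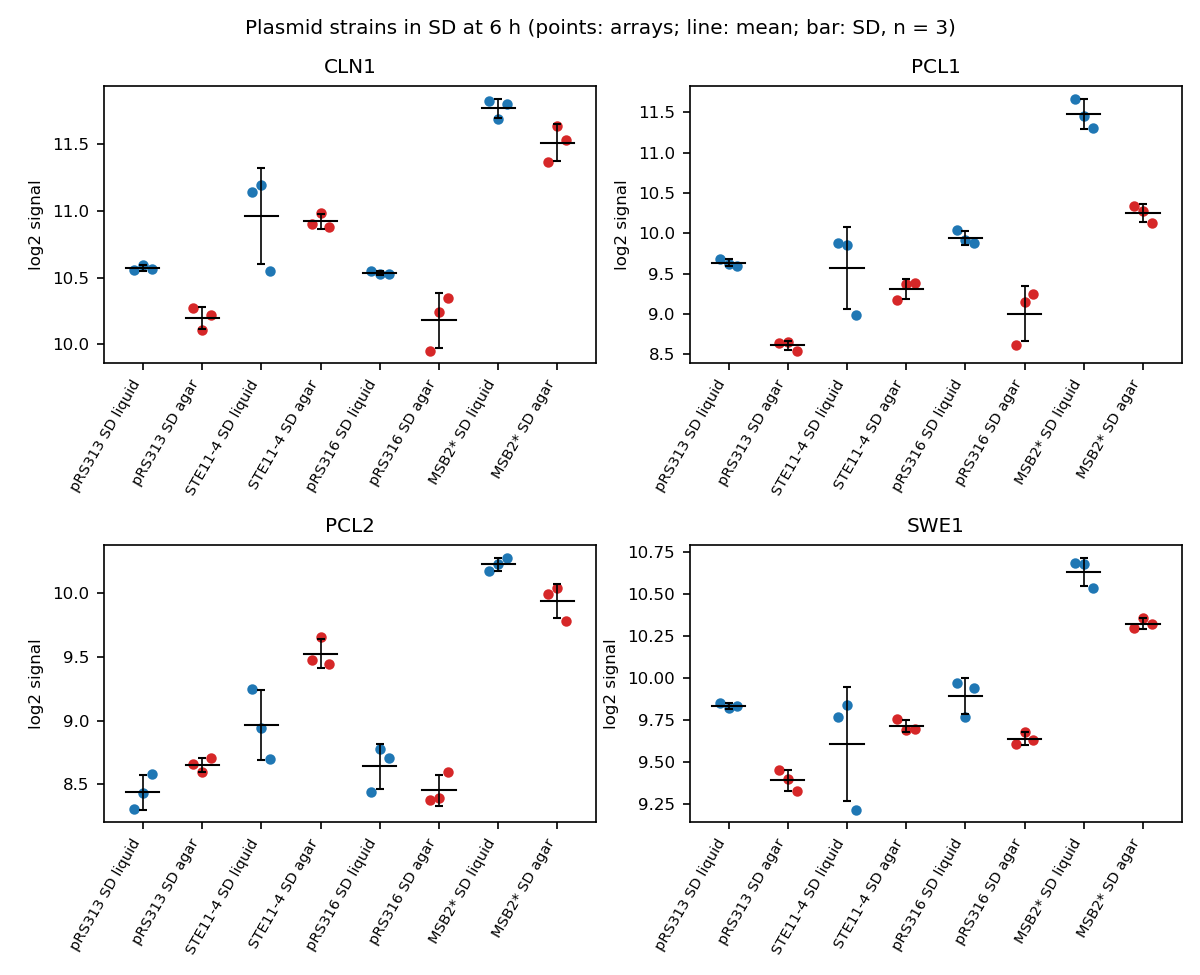
The 4 panels plot the log2 signal of CLN1, PCL1, PCL2 and SWE1 in the plasmid strains in SD at 6 h, with a point for each array (blue liquid, red agar), a line for the mean and a bar for the SD, n = 3. The MSB2* arrays lie above the pRS316 arrays in every panel, in liquid and on agar.

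The CLN2 and CLN3 genes did not pass on agar with either allele. CLN2 was at 0.29 (adjusted p = 0.325) with STE11-4 and 0.20 (adjusted p = 0.442) with MSB2*, and CLN3 at -0.28 (adjusted p = 0.72) and -0.23 (adjusted p = 0.621).

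Pheromone response genes were counted in the same comparisons. Of 14 pheromone response genes, 7 rose in MSB2* and 10 in STE11-4 on agar and none fell, with the cell fusion gene FUS1 at 2.83 and 3.06. Of all genes, 6.68% rose and 2.90% fell in MSB2*, and 2.70% rose and 0.973% fell in STE11-4. TEC1, the factor of filamentous genes, was at 12.07 ± 0.04 on agar in MSB2* and 10.74 ± 0.16 in pRS316, and at 11.56 ± 0.11 in STE11-4 and 10.72 ± 0.07 in pRS313. The list medians were 0.39 and 0.64, beside 0.01 and 0.02 for all genes.

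With KSS1 or TEC1 mutated, SWI4, the DNA-binding subunit of SBF, and HCM1 were lower on agar. SWI4 read 8.17, 8.35 and 8.24 in wild-type, 7.12, 7.30 and 7.15 in Kss1K42R and 7.06, 6.76 and 7.16 in tec1. Both mutants lay below wild-type without overlap, by -1.07 ± 0.22 (adjusted p = 0.000571) and -1.26 ± 0.22 (adjusted p = 2.69e-05). HCM1 read 11.65, 11.53 and 11.33 in wild-type, 10.83, 10.81 and 10.70 in Kss1K42R (-0.72 ± 0.17, adjusted p = 0.00257) and 10.75, 11.04 and 10.71 in tec1 (-0.67 ± 0.17, adjusted p = 0.00475). The mutants share the wild-type arrays, so the pair is not independent. No other member was called in either mutant on agar, so 2 fell in each, against 4.59% of all genes in Kss1K42R and 5.27% in tec1, and none rose, against 1.23% and 1.41%. CLN1 was at 0.03 (adjusted p = 0.939) in Kss1K42R and -0.23 (adjusted p = 0.394) in tec1.

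In liquid both mutants had more members above wild-type than below, as had all genes. In Kss1K42R 12 were higher, against 15.0% of all genes, and 1 lower, against 7.76%. In tec1 8 were higher, against 16.1%, and 2 lower, against 8.85%. The all-gene medians were 0.09 and 0.08, and median centring took the Kss1K42R count from 13 to 8. CLB6 read 9.74, 9.62 and 9.70 in Kss1K42R (1.13 ± 0.20) and 9.67, 9.37 and 9.38 in tec1 (0.92 ± 0.20), with wild-type arrays as given for SD liquid. PCL1 was higher by 0.996 ± 0.25 and 0.84 ± 0.25, and HCM1 was lower in both (-0.57 and -0.77). SWI4 in liquid was at -0.34 (adjusted p = 0.255) and -0.39 (adjusted p = 0.173). Whether the agar change of SWI4 differed from wild-type did not pass the test, at -0.73 ± 0.31 (adjusted p = 0.149) and -0.87 ± 0.31 (adjusted p = 0.0558). That of CLB6 did, at -1.07 ± 0.29 and -1.16 ± 0.29, as the only member in Kss1K42R (all genes 6.70%) and with FKH2 in tec1 (all genes 10.5%). The Kss1K42R call was lost under quantile normalization (adjusted p = 0.0707) and without wild-type liquid array B (adjusted p = 0.0637), and the count was 4 without wild-type liquid array A and 2 without wild-type agar C, Kss1K42R liquid B or Kss1K42R agar C. In tec1 CLB6 kept its call under quantile normalization (adjusted p = 0.0440), median centring and without each array in turn, while the count was 1 under quantile normalization, under median centring, and without wild-type agar A or B, wild-type liquid B or C, tec1 liquid A or C or any tec1 agar array. The liquid counts fell to 8 in Kss1K42R without its array A, and in tec1 to 6 without its array B, to 6 without wild-type array B and to 5 without wild-type array C.

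The msb2 strain carried higher SWI5 on agar and lower WHI5 in liquid than wild-type, but neither was called against pRS316. SWI5 read 10.04, 10.20 and 10.17 in msb2 and 9.14, 9.14 and 9.10 in wild-type on agar, apart by 1.01 ± 0.20 (adjusted p = 9.61e-05). WHI5 read 7.86, 7.31 and 7.004 in msb2 and 9.43, 8.98 and 9.65 in wild-type in liquid, apart by -1.96 ± 0.42 (adjusted p = 0.000416). On agar 4 members were higher, against 17.7% of all genes, and 5 lower, against 13.9%, among them CLN2 (-0.58), HCM1 (-0.56) and PCL2 (-0.47). Without msb2 agar array A or C the count of 9 was 10 or 7. On the same arrays 14 of 20 general stress genes were higher, 8 at least 2-fold, with msb2 array means from 9.82 to 12.21 against 9.84 ± 0.30 in wild-type, and 12 of 30 ribosome biogenesis genes were lower. Their part was not tested. In liquid 10 were higher, against 19.9%, and 2 lower, against 7.71%. The all-gene median there was 0.12, or 0.02 after centring, which left 5 members called. Without wild-type liquid array C or msb2 liquid array B 5 were called as well. Against pRS316, another labelled control in SD, SWI5 on agar was at -0.18 (adjusted p = 0.644) and WHI5 in liquid at -0.67 (adjusted p = 0.329). URA3 was at 4.40 ± 0.14 in msb2 on agar, 4.70 ± 0.17 in wild-type and 13.44 ± 0.17 in pRS316. General stress genes in pRS316 averaged 11.79 ± 0.18 on agar and 11.59 ± 0.09 in liquid, beside 9.84 and 10.44 in wild-type. The part of URA3 or of the stress genes was not tested.

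In flo11, which lacks the adhesin, 1 member was called against wild-type on agar and many were higher in liquid. On agar NDD1 alone was called (0.48 ± 0.12, adjusted p = 0.0316), against 0.459% of all genes higher and 0.587% lower, and 6 had an unadjusted limma p under 0.05. The call of NDD1 was lost without wild-type agar array A, B or C or flo11 agar array A or C. In liquid 27 members were higher, against 33.1%, and none lower, against 13.8%. PCL1 read 9.53, 9.66 and 9.64 in flo11 and 8.35, 8.22 and 8.50 in wild-type (1.26 ± 0.25), and SWI4 (0.94) and CLB6 (0.90) followed. The all-gene median was 0.14 there, or 0.03 after centring, against 0.36 for the members. With pRS316 in place of wild-type only 2 members were called in liquid, and PCL1 was at -0.34. The general stress level of pRS316 was above that of wild-type, as given for msb2.

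In the remaining strains some members rose on agar and others fell. 4 members rose and 6 fell in Kss1K42R (all genes 20.1% and 23.3%), with YOX1 at -0.64. In tec1 4 rose and 4 fell (all genes 18.2% and 23.3%), with POL30 at 0.58 and PCL1 at -0.60. In msb2 5 rose and 6 fell (all genes 19.8% and 21.8%). There WHI5 read 9.15, 9.15 and 9.25 on agar, above its liquid arrays, a rise of 1.79 ± 0.42 (adjusted p = 0.000425), and differed from the wild-type change by 1.83 ± 0.59, one of 11 members that differed (all genes 23.1%), a count that was 5 without msb2 agar array C. In flo11 5 rose and 8 fell (all genes 12.1% and 19.4%), with PCL1 at 8.53, 8.34 and 8.46 on agar (-1.17 ± 0.25). The flo11 change differed from wild-type for 8 members, all more negative (all genes 17.5%), beside an all-gene median of -0.14, or -0.02 after centring.

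In pRS316 4 members rose on agar and 8 fell (all genes 18.7% and 23.4%), with CLB1 at 0.62, PCL1 at -0.94 and YOX1 at -0.91. In MSB2* 4 rose and 2 fell (all genes 7.67% and 10.1%), with PCL1 at -1.23 ± 0.25 and SWI5 at 0.73. In the arrays labelled PGAL1-FLO11 in SD 9 rose and 4 fell (all genes 20.8% and 21.7%), with CLB6 at 0.86, SIC1 at -0.84 and SWI5 at -0.80. Single arrays moved the count from 10 to 6 in Kss1K42R (without agar C), from 8 to between 3 and 5 in tec1 (without liquid B or C or agar A or B), from 11 to 7 in msb2 (without agar C), from 13 to 8 in flo11 (without agar A or liquid C) and from 6 to 3 in MSB2* (without liquid B).

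Over the 6 h of growth of wild-type on SD agar, CLB1 fell the most. The 6 arrays at 0 h had a lowest value of 10.59, a median of 10.77 and a highest of 10.94, and those at 6 h read 9.79, 9.79 and 9.58, lower without overlap by -1.05 ± 0.13 (adjusted p = 1.45e-09). The deposited values of the 6 arrays at 0 h, and of no other array, carry at most 9 decimals, and whether they were normalized with the rest is not given in the sources used here, so a difference in processing cannot be told apart from time. 7 members fell, against 11.9% of all genes, and FKH2 (0.45) and FKH1 (0.29) rose, against 10.2%. PCL1 was at -0.77. Between 4 and 5 members were called in place of 9 without wild-type agar array A, B or C at 6 h or array D or F at 0 h.

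In SD liquid HCM1 rose over the same time. It read 11.05, 10.32 and 10.86 at 0 h and 11.85, 11.83 and 11.85 at 6 h, apart by 1.10 ± 0.17 (adjusted p = 1.14e-07). RNR1 (0.81) and CLN3 (0.76) also rose and FKH2 (-0.78) fell. In all 11 rose, against 20.3% of all genes, and 3 fell, against 35.5%. The all-gene median was -0.12, and quantile normalization moved it to -0.00 and the count from 14 to 27. Only the titles at 0 h carry the letter b, so whatever it marks cannot be told apart from time here.

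Several members were called in 1 or 2 of the 13 liquid-agar pairs. SWI4 and SWI6 rose in 1 of the 13 pairs, wild-type SLAD, and MBP1 fell in 1, flo11. NDD1, a coactivator of CLB1 and CLB2, rose in 1, also flo11. CLN3 fell in 2 pairs, wild-type SD and SLAD, and rose in none. WHI5 rose in 2, wild-type SG and msb2, with the limit given above for SG. TOS4 rose in 2, wild-type SLAD and SG, and in the other pairs its change lay between -0.33 and 0.33 without a call.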

How the data were processed

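Total RNA of yeast cultures was labelled with biotin and hybridised to 1-colour Affymetrix arrays. The authors deposited log2 signals, normalized with RMA per the submitters' processing notes, and other steps the sources used here do not give. Signals spanned 3.42 to 15.6 log2, with array medians of 6.76 to 7.23. Of 10928 probe sets, 7244 named 1 gene in the platform annotation, 1 several and 3683 none. The 1746 whose gene is outside the S. cerevisiae gene table set a background limit per array at their 95th percentile (5.72 to 6.33). The other 5498 gave 5449 genes, the brightest probe set being kept for the 47 genes with several.

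The 45 members and all other lists were chosen with earlier results of these data known, and all 45 members are named. A single limma 3.58.1 fit of group means (R 4.3.3) used all 90 arrays (61 residual and 2.88 prior degrees of freedom), with two-sided moderated tests and Benjamini-Hochberg adjustment over 5449 genes. Some genes of the other lists are not reported here. Tested on simulated data with 200 of 5449 genes changed, the wild-type SLAD comparison of agar with liquid recovered 61.5% of changes of 0.5 log2 and 96% of changes of 1. The number of arrays limits the precision. Alternatives were quantile normalization, median centring, leaving out the dimmest 25% of genes, a replicate block, each comparison's own arrays, pRS316 as control for msb2 and flo11, subsets of the 0 h agar arrays, the mean of probe sets, and leaving out each array. No sequence was used.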

Additional observations from a re-analysis of the deposited data

Results flagged for a closer look

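The change from liquid to agar differed between groups by limma's test of the difference itself, with adjusted p under 0.05 over all genes. Between wild-type SLAD and SD it differed for 34 members, against 51.3% of all genes. The largest differences were 2.81 for SWI5, 2.69 for TOS4 and 2.44 for HSL1 (log2). Between wild-type SG and SD it differed for 25, against 47.7%, with RNR1 at 2.08, HSL1 at 1.37 and MCD1 at 1.36. In SG it differed between wild-type and the strain labelled PGAL1-FLO11 for 35, against 54.0%. There RNR1 was at -2.39, POL30 at -2.09 and MCD1 at -1.85. Both SG differences share the wild-type SG arrays.

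Among the SD strains it differed from wild-type for 1 member in Kss1K42R (CLB6, -1.07), against 6.70% of all genes. In tec1 it differed for 2 (CLB6 the larger, -1.16), against 10.5%. In msb2 it differed for 11 (WHI5, 1.83), against 23.1%, and in flo11 for 8 (PCL1, -1.19), against 17.5%. From the plasmid control it differed for 8 in STE11-4 (CLB6, 1.49), against 4.55%, and for 1 in MSB2*, against 1.73%. The Kss1K42R, tec1, msb2 and flo11 differences share the wild-type arrays. The msb2 count was 5 to 7 without wild-type agar A, wild-type liquid B or C, msb2 agar C or msb2 liquid C. The flo11 count was 2 to 5 without wild-type agar A or B, wild-type liquid B or C, flo11 agar B or flo11 liquid C. The tec1 count was 1 without wild-type agar A or B, wild-type liquid B or C, any tec1 agar array, or tec1 liquid A or C. The Kss1K42R count was 0 without wild-type liquid B, 4 without wild-type liquid A, and 2 without wild-type agar C, Kss1K42R liquid B or Kss1K42R agar C. The STE11-4 count was 2 without its liquid array C, 17 without its liquid array A and 5 without pRS313 liquid A.

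In wild-type SD agar at 0 h, the only group with more than 3 arrays, 1 array lay far from the other 5 for 5 members. Array D was the far one for CLN1 (10.44), CLB6 (10.66), PCL1 (9.84) and MCD1 (9.62), and array A for CDC5 (10.74). Chance flags about 1 in 20 members in this way, as each member was checked separately in this group. How many of all genes would be flagged is not given here. Array D was also the farthest of this group from its replicates by root mean square distance (0.245 log2, with array B next at 0.181).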

How the results depend on the processing

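Over all 43 comparisons, 569 of 619 called member values kept their call and direction under quantile normalization, 571 of 619 under median centring and 612 of 619 with a replicate block. When single arrays were left out 3950 of 4491 did. Where only some comparisons were refitted, 3 of 49 did with pRS316 as control and 114 of 132 on own arrays only. With 0 h agar arrays A to C 3 of 9 did, and with D to F 8 of 9. Without the dimmest genes 478 of 478 still tested did, and with the mean of probe sets 619 of 619. The mean of probe sets could not alter a member's signals, as each has 1 probe set. Leaving out dim genes alters only which genes are tested. Counts of called members that moved are given from the reported value to the alternative. The cause was not tested unless stated. Under quantile normalization the count went from 14 to 27 for SD liquid over time, 12 to 7 for msb2 against wild-type in liquid, 9 to 14 for MSB2* against pRS316 in liquid, and, for differences in the agar change, 1 to 0 in Kss1K42R, 2 to 1 in tec1 and 8 to 3 in flo11. PCL2 in SG against SD liquid went from 0.45 to -0.083. Under median centring the counts were 23 for SD liquid over time, 8 (from 13) for Kss1K42R in liquid, 5 for msb2 in liquid, 0 for flo11 on agar, and 1, 6 and 5 for the agar change in tec1, msb2 and flo11. Leaving out the dimmest 25% removes 12 members from testing, SWI4, CLB6, PCL1 and PCL2 among them, which by construction lowers counts: to 5 for flo11 agar against liquid, 3 for MSB2* agar against liquid, 1 each for Kss1K42R and tec1 against wild-type on agar, 6 for tec1 in liquid, 0 for flo11 on agar, and 0, 1 and 4 for the agar change in Kss1K42R, tec1 and flo11. Fitted on its own arrays, SD agar against liquid gave 20 and gelatin 0. With 0 h arrays A to C alone, 4 members were called on SD agar over time. Same-letter replicates did not regularly deviate together (every r above 0.1 in 1 of 34 comparisons, median 0.0349, from -0.558 to 0.442). With 3 arrays a group, this check cannot settle whether a letter marks arrays handled together. A replicate block gave 4 in place of 9 for SD agar over time and 2 in place of 1 for the Kss1K42R agar change, and moved no other count by over 1.5 times. With pRS316 as control, flo11 gave 13 on agar and 2 in liquid. With it, msb2 on agar had CDC20 at -0.52 and SWI5 at -0.18. In liquid msb2 had CLN1 at -0.52, CLN3 at 0.12, CLB6 at -0.51, MCM4 at -0.074, MCM7 at -0.26, SWI4 at -0.37, CLB3 at -0.011, CDC20 at -0.30 and CKS1 at -0.024. In liquid flo11 had CLN1 at -0.29, CLB6 at -0.19, PCL1 at -0.34, RFA1 at -0.10, MCM4 at -0.056, MCM5 at -0.15, MCM7 at -0.21, SWI4 at -0.12, YOX1 at -0.15, TOS4 at -0.0093, CLB3 at -0.025, CDC5 at -0.022 and CDC20 at -0.19. Leaving out single arrays gave 9 to 19 for gelatin, 6 to 11 for Kss1K42R agar against liquid, 3 to 8 for tec1, 7 to 11 for msb2, 8 to 13 for flo11, 9 to 21 for STE11-4 and 3 to 6 for MSB2*. It gave 4 to 9 for SD agar over time. Against wild-type it gave 8 to 12 for Kss1K42R in liquid, 5 to 11 for tec1 and 5 to 11 for msb2 in liquid, and 0 to 1 for flo11 on agar. Against pRS313, STE11-4 gave 2 to 3 on agar and 12 to 28 in liquid. For the agar change it gave 0 to 4 in Kss1K42R, 1 to 3 in tec1, 5 to 13 in msb2, 2 to 9 in flo11 and 2 to 17 in STE11-4. SMC3 on gelatin ranged from -0.00024 (without gelatin array A) to 0.49. Without SG liquid array C, WHI5 went to -0.16 for SG agar against liquid and 0.18 for SG against SD liquid, and the other end of its range was 1.67 and -1.65, without array A. With 3 arrays a group, the simulated difference between agar changes in SLAD and SD was recovered for 35.5% of genes at 0.5 log2, so smaller differences between strains may go uncalled.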
